A study of Mus musculus with 6 samples.

Results

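The genes of mitochondrial fatty acid oxidation and ketone body metabolism were examined in cultured primary mouse hepatocytes, the main cell type of the liver, after exposure to LRG1. The set holds 38 genes of the 22609 gene rows of the count tables, chosen by name: 36 listed genes and the enoyl-CoA isomerase genes, which the tables carry under the newer symbols Eci1 and Eci2. Read counts per gene were available for 3 libraries of cells kept with LRG1 protein at 20 µg/mL for 16 h and 3 of cells kept with phosphate-buffered saline (PBS), the control, for as long. The donors of the cells were wild-type C57BL/6 males, aged 4 months. LRG1 is a secreted protein rich in leucine repeats, which the series title calls an adipokine. The labels name no mouse or culture for a sample, so the spread between the samples of a group may be technical, and p-values measure that spread alone.

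Long-chain fatty acids reach the mitochondrial matrix as carnitine esters. Carnitine palmitoyltransferase 1 on the outer membrane makes the ester and is inhibited by malonyl-CoA, and carnitine palmitoyltransferase 2 inside returns the acyl-CoA. Each turn of beta-oxidation then uses an acyl-CoA dehydrogenase, an enoyl-CoA hydratase, a hydroxyacyl-CoA dehydrogenase and a thiolase, with electrons passed to the respiratory chain through the electron transfer flavoprotein. The liver turns part of the acetyl-CoA into ketone bodies, which it exports in fasting, and the nuclear receptor PPAR-alpha is known to drive many of these genes.

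The starts of 3 genes are shown, since Cpt1a and Acot2 were among the members with the largest falls and Hadha did not fall. RefSeq promoters (250 bases before to 50 after the gene start, build GRCm38.p6) matched 30 of the 38 members. Capitals mark the GC box GGGCGG on either strand, overlapping copies merged; Acot2 has none. The Cpt1a stretch is chr19:3323051-3323350 on the plus strand, the Acot2 stretch chr12:83987611-83987910 on the plus strand and the Hadha stretch chr5:30154931-30155230 on the minus strand.
Cpt1a promoter: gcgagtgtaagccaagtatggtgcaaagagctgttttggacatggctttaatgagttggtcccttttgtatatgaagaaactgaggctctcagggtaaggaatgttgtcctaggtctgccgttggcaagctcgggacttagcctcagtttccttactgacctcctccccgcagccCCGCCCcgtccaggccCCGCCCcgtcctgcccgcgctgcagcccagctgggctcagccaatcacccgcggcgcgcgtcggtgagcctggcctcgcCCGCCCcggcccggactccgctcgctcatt
Acot2 promoter: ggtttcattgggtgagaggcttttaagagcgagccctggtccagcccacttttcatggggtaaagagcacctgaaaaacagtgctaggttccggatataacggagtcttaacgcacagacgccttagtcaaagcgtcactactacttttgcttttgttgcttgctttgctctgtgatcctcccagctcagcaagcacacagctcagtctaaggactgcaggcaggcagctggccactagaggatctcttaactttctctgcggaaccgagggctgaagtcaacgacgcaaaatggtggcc
Hadha promoter: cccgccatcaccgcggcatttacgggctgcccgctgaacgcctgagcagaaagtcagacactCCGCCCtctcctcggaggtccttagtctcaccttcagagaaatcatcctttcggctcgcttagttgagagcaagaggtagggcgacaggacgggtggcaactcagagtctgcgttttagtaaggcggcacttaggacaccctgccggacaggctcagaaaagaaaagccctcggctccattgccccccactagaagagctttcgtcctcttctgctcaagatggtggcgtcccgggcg

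Among the 32 promoters of the matched members, 21 held a GC box, against 35.7% of all 32851 promoters in the table. TATAAA was found in 1 of the 32, that of Acot9, against 13.6% of all. A pair of AGGTCA half-sites in the same direction with 1 base between them, the form that PPAR and RXR pairs are known to bind, was in none of the 32, against 0.0396% of all promoters. With any base at the fourth position of each half-site the motif was again in none, against 0.381% of all. The estrogen-related receptor motif TNAAGGTCA and the cyclic AMP motif TGACGTCA were also in none of the 32, against 1.28% and 1.79% of all promoters. Each of the half-site, estrogen-related receptor and cyclic AMP motifs is rare enough that 32 promoters of any genes could well lack it. Their absence therefore cannot set the members apart from other genes, and sites outside these short stretches were not searched. Both strands were searched, and the half-site motifs overlap one another in their letters. Hadha and Hadhb, which encode the subunits of the mitochondrial trifunctional protein, start 273 bases apart on opposite strands, so that most of the stretch shown for Hadha lies between both starts.

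The genes were mainly lower with LRG1, most of them by modest amounts, and none passed the test as higher. Of the 37 members with enough counts to be tested, 26 (70.3%) fell past the threshold of an adjusted p of 0.05 in edgeR's quasi-likelihood test and 11 did not pass. Across all 12301 tested genes, 25.8% were called lower and 25.5% higher with LRG1. The median log2 fold change of the tested members, LRG1 over PBS, was -0.30, against 0.0093 for all tested genes. The count of members called higher was 0 in edgeR, in DESeq2 and in limma-voom, and at an unadjusted p of 0.05 in edgeR it was also 0 (27 were lower). With GC and length trends removed it was 1, Acads. A fall of at least 1.5-fold was called for 9 of the 37, a share of 24.3% where all genes gave 10.6%, and a rise of that size for 0, where all genes gave 7.49%. The levels of the groups, in CPM (read counts scaled to a common library total, after TMM normalization), did not overlap and were lower with LRG1 for 29 of 37 members, where 28.6% of all genes did so. Hadha alone lay entirely higher with LRG1, as 29% of all genes did, and the other 7 overlapped, where 57.6% of all genes were without overlap in either direction. In bulk RNA of this kind, fewer cells of a type and less RNA per cell cannot be told apart.

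Gene counts per library summed to between 18625748 and 23036332, and the members took 51287 to 57520 counts in LRG1 libraries and 59856 to 62616 in PBS libraries. The 10 hepatocyte markers differed widely in level, with Alb at 18555 ± 375 CPM with LRG1 and 19235 ± 676 CPM with PBS. Of the 10, 5 fell (50%, against 25.8% of all tested genes), and 5 did not pass. None was called higher, against 25.5% of all tested genes. Tat fell the most, with 1.19 ± 0.194 CPM with LRG1 and 9.20 ± 1.33 CPM with PBS. Cps1 was next, with 8.44 ± 1.58 CPM with LRG1 and 36.3 ± 2.81 CPM with PBS. The sum of the markers, mainly Alb, was 21993 to 22902 CPM with LRG1 and 22748 to 23760 CPM with PBS. Of 9 tested stellate cell and fibroblast markers, 2 rose (22.2%) and 1 fell (11.1%), shares not above those of all tested genes. Their summed level was 158 to 169 CPM with LRG1 against 60.7 to 68.5 CPM with PBS. Col1a1 held most of that difference, with 110.2 ± 4.96 CPM with LRG1 and 11.2 ± 2.302 CPM with PBS. The 7 tested macrophage markers (1 higher, 2 lower) summed to 181 to 206 CPM with LRG1 and 221 to 266 CPM with PBS, mainly Cd68. The 7 tested endothelial markers (1 higher, 2 lower) summed to 44.3 to 45.4 CPM with LRG1 and 45.7 to 49.7 CPM with PBS. In both lists 14.3% were called higher and 28.6% lower, against 25.5% and 25.8% of all tested genes. Of the 3 tested cholangiocyte markers, Krt19 fell, Sox9 rose and Spp1 did not pass. They summed to 4324 to 4642 CPM with LRG1 and 4446 to 4629 CPM with PBS. Most of this was Spp1, at 4442 ± 176 CPM with LRG1 and 4437 ± 103 CPM with PBS. No marker was at 0 in all libraries, and the part of other cells in the members' differences was not tested.

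**Figure D1:**
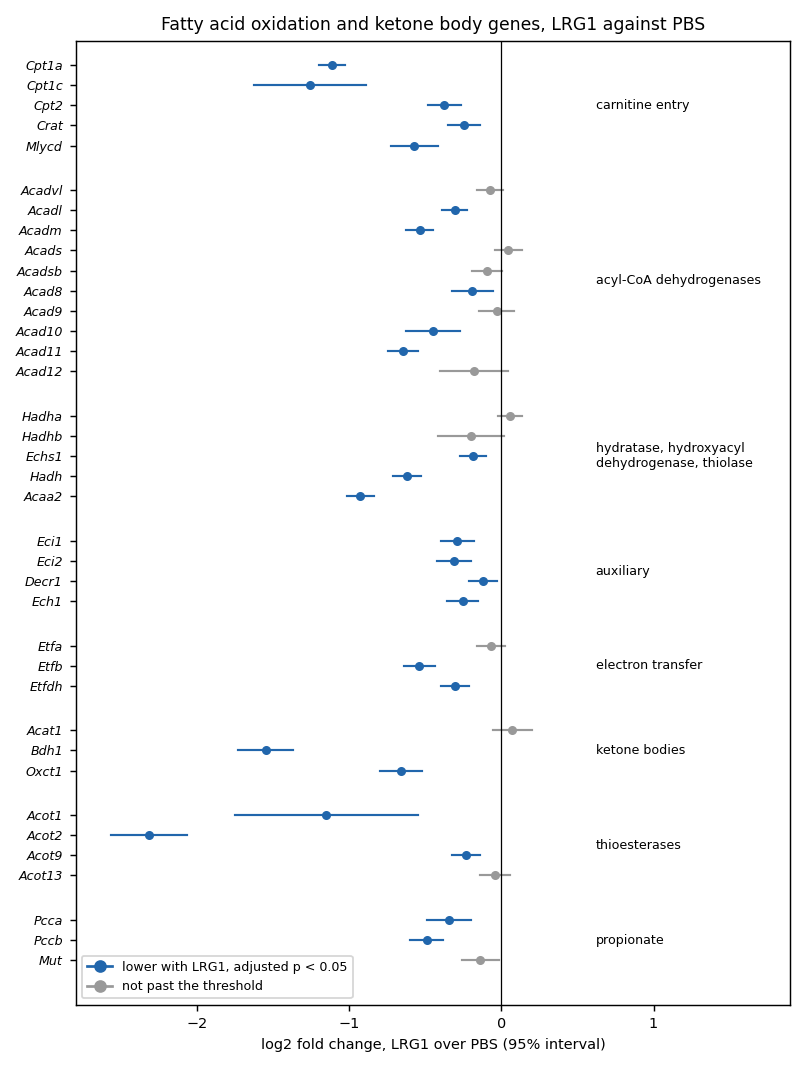
Log2 fold change of each of the 37 tested members, LRG1 over PBS, with its 95% interval on the x axis and the genes grouped by role down the page; blue marks genes lower with LRG1 past the threshold and grey those not past it. The values run from -2.32 for Acot2 to 0.073 for Acat1, and 26 genes are blue.

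All 5 tested genes of carnitine-dependent entry fell, where 25.8% of all tested genes were called lower: Cpt1a, Cpt1c, Cpt2, Crat and Mlycd. Cpt1a, the liver form of carnitine palmitoyltransferase 1, had 108, 99.4 and 106 CPM in the LRG1 libraries, against 225, 222 and 231 CPM in the PBS libraries. Every LRG1 library lay below every PBS library, at about the same distance, and the log2 fold change was -1.11 (SE 0.042, adjusted p = 1.98e-16, n = 3 per group). Cpt2, the inner-membrane partner, had 58.6, 53.1 and 56.2 CPM in the LRG1 libraries, against 71.4, 70.3 and 75.7 CPM in the PBS libraries. Its groups did not overlap either, but it fell by only 1.297-fold (log2 fold change -0.37, SE 0.052, adjusted p = 1.61e-06). Within a library the ratio of Cpt1a to Cpt2 counts was 1.87 ± 0.0197 with LRG1 and 3.12 ± 0.0578 with PBS (SD, n = 3). The pair was chosen after the values were seen, so its exact permutation p of 0.1, the smallest possible, is no independent test.

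The other forms of carnitine palmitoyltransferase 1 had few counts. Cpt1c, the form best known from brain, had 1.44, 1.94 and 1.91 CPM in the LRG1 libraries, against 4.301, 4.31 and 4.14 CPM in the PBS libraries. It fell at low counts of 29 to 45 per library with LRG1 and 78 to 85 with PBS (log2 fold change -1.26, SE 0.18, adjusted p = 2.27e-06), and 13.1% of its exon bases overlap a transcript on the opposite strand. Cpt1b, the muscle form, had 3 to 5 counts with LRG1 and 2 to 4 with PBS and was the member with too few counts to test. In GENCODE M21, 93% of the 50-base windows of the Cpt1b transcript also belong to Gm44502, a gene model at the same locus. Whether the authors' annotation holds that model is unknown, so the low count of Cpt1b is uncertain. As counted, Cpt1a made up 98.2% of the counts of the family with LRG1 and 98.1% with PBS, pooled over libraries. The exact permutation test over samples gave p = 0.7 (two-sided, smallest possible p 0.1).

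Mlycd, malonyl-CoA decarboxylase, removes the inhibitor of carnitine palmitoyltransferase 1. It had 20.6, 20.4 and 20.8 CPM in the LRG1 libraries, against 29.05, 28.6 and 34.1 CPM in the PBS libraries, so PBS replicate 3 was the highest and the groups stood apart (log2 fold change -0.57, SE 0.075, adjusted p = 7.73e-07). Crat, carnitine acetyltransferase, fell less, with 57.1 ± 2.24 CPM with LRG1 and 67.9 ± 2.76 CPM with PBS (SD, n = 3; log2 fold change -0.25, adjusted p = 0.000257).

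Among the 10 acyl-CoA dehydrogenase genes, which encode the first step of the spiral or related reactions, 5 fell and 5 did not pass. The share lower was 50%, against 25.8% of all tested genes. Acadm, the medium-chain dehydrogenase, had 127, 119 and 129.7 CPM in the LRG1 libraries, against 183, 186 and 177 CPM in the PBS libraries. The LRG1 libraries were all lower and the log2 fold change was -0.54 (SE 0.042, adjusted p = 1.51e-10). Acad11, which acts on long-chain and hydroxylated acyl-CoAs, had 78.3, 71.5 and 77.2 CPM in the LRG1 libraries, against 122, 112 and 121 CPM in the PBS libraries. This was the largest fall in the family, at 1.57-fold (log2 fold change -0.65, adjusted p = 5.71e-11), and 8.86% of its exon bases overlap Ackr4 on the opposite strand. Acadl, the long-chain dehydrogenase, was 1.24-fold lower (137 ± 1.69 CPM with LRG1 and 169 ± 3.91 CPM with PBS). Acad10 was 1.37-fold lower, and Acad8, the isobutyryl-CoA dehydrogenase of valine breakdown, 1.14-fold lower (adjusted p = 0.0170). The call of Acad8 was lost without LRG1 replicate 2, PBS replicate 1 or PBS replicate 3 (adjusted p over all alternatives 0.00437 to 0.0904).

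The remaining dehydrogenases showed small differences. Acadvl, the very long-chain enzyme, averaged 162 ± 3.24 CPM with LRG1 and 171 ± 5.97 CPM with PBS (log2 fold change -0.076, 95% interval -0.16 to 0.0073, adjusted p = 0.120). Acads, the short-chain enzyme, averaged 186 ± 10.01 CPM with LRG1 and 180.2 ± 5.94 CPM with PBS (95% interval -0.045 to 0.13), and without LRG1 replicate 1 its log2 fold change was -0.00033. Intervals for Acadsb, the short/branched-chain enzyme of isoleucine breakdown, for Acad9, known also for the assembly of respiratory complex I, and for Acad12 were -0.19 to 0.0063, -0.14 to 0.080 and -0.40 to 0.046. With GC and length trends removed, Acadsb passed as lower (log2 fold change -0.16, adjusted p = 0.00413, against -0.093 and 0.111 without that step; range over all alternatives 0.00413 to 0.306). Acadvl shares 45% of its exon bases with Dvl2 on the opposite strand, and its value is uncertain, since no source used here states the strand setting of the counting. In Acad10 and Acad12, 20.4% and 20.7% of the 50-base windows also occur in transcripts of other genes, in the main each other's.

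In the later steps, the single-enzyme genes fell and those of the trifunctional protein did not pass. Acaa2, the mitochondrial 3-ketoacyl-CoA thiolase, had 103, 95.2 and 98.8 CPM in the LRG1 libraries, against 181, 195 and 188 CPM in the PBS libraries. It was 1.903-fold lower, with close values inside each group (log2 fold change -0.93, SE 0.043, adjusted p = 1.23e-14). Hadh, the hydroxyacyl-CoA dehydrogenase for medium and short chains, had 114, 104 and 107 CPM in the LRG1 libraries, against 160.4, 165 and 174 CPM in the PBS libraries. Here too the groups were well apart (log2 fold change -0.62, SE 0.044, adjusted p = 3.31e-11). Echs1, the short-chain enoyl-CoA hydratase, was lower by 1.14-fold (109 ± 1.81 CPM with LRG1 and 124 ± 1.33 CPM with PBS, adjusted p = 0.00041).

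Hadha, the alpha subunit of the trifunctional protein, which carries hydratase and dehydrogenase activity for long chains, had 249, 249 and 255 CPM in the LRG1 libraries, against 237, 243 and 243 CPM in the PBS libraries. The LRG1 values were all slightly higher, without passing the threshold (log2 fold change 0.056, 95% interval -0.020 to 0.13, adjusted p = 0.214). Hadhb, the thiolase subunit, had 10.7, 10.4 and 11.1 CPM in the LRG1 libraries, against 10.7, 12.2 and 14.1 CPM in the PBS libraries. Its groups overlapped through PBS replicate 1 (log2 fold change -0.20, adjusted p = 0.117), and without that library the fall passed the threshold (log2 fold change -0.30, adjusted p = 0.0263; range over all alternatives 0.0263 to 0.522). Per kilobase of exon, Hadhb stood at 5.16 CPM per kilobase with LRG1 and 5.93 with PBS, against 62.4 CPM per kilobase with LRG1 and 60.03 with PBS for Hadha. Of the 50-base windows of the Hadhb transcript, 62.4% also occur in transcripts of 2 other genes, chiefly a processed pseudogene, against 0% elsewhere in the genome's transcripts for Hadha, and the part of this in its low count was not tested. The ratio of Hadha to Hadhb counts was 23.4 ± 0.530 with LRG1 and 19.8 ± 2.46 with PBS (SD, n = 3), an exact permutation p of 0.1, which is the smallest that 3 against 3 samples allow.

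**Figure D2:**
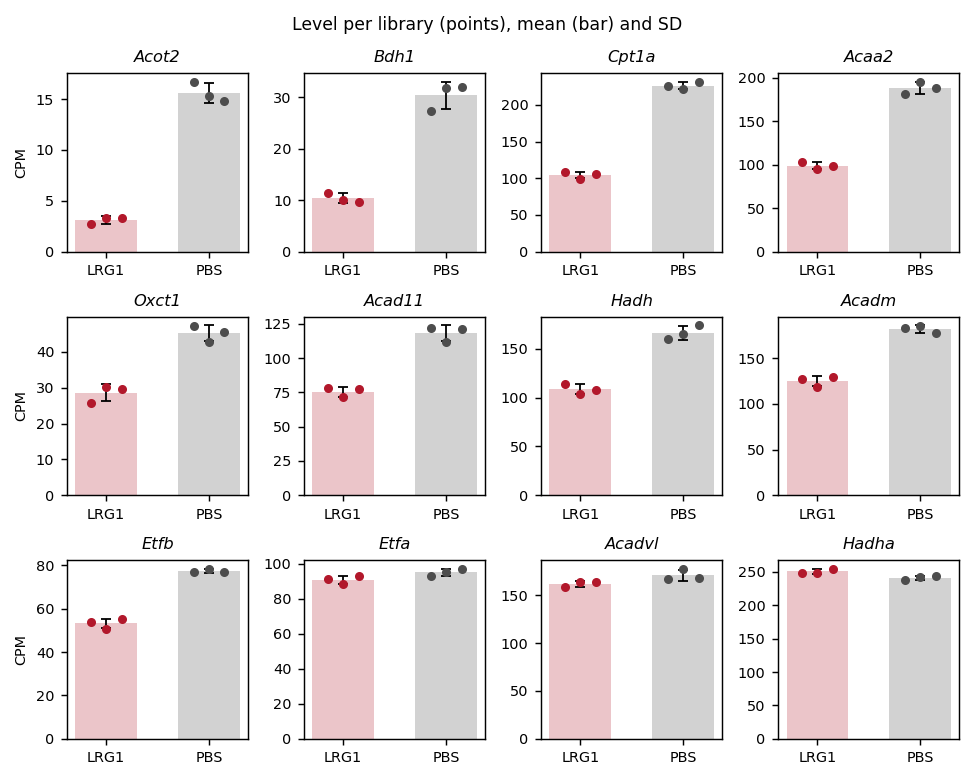
CPM in each library (points), with the mean (bar) and SD, n = 3 per group, for 12 members, LRG1 left and PBS right. In the panels from Acot2 to Etfb the LRG1 points all lie below the PBS points by a wide margin, while those of Etfa and Acadvl lie just below and those of Hadha just above.

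The auxiliary enzymes, which handle double bonds of unsaturated fatty acids, all fell a little, where 25.8% of all tested genes were called lower. Eci1 and Eci2, the enoyl-CoA isomerases, were 1.22-fold and 1.24-fold lower, with adjusted p of 6.05e-05 and 4.4e-05. Ech1, a dienoyl-CoA isomerase, was 1.19-fold lower (84.2 ± 3.64 CPM with LRG1 and 100.4 ± 6.31 CPM with PBS). Decr1, the 2,4-dienoyl-CoA reductase, was 1.09-fold lower (adjusted p = 0.0304), the weakest call of the set: it was lost in 7 of the 15 alternatives, among them total-count scaling, DESeq2 and leaving out either of the first 2 LRG1 or first 2 PBS replicates, with adjusted p from 0.00967 to 0.144.

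The electron transfer genes were uneven. Etfb, the beta subunit of the electron transfer flavoprotein, had 53.8, 50.8 and 55.02 CPM in the LRG1 libraries, against 76.7, 78.4 and 76.7 CPM in the PBS libraries. All LRG1 values were lower (log2 fold change -0.54, SE 0.049, adjusted p = 1.88e-09). In GENCODE M21, 67.3% of the Etfb windows of 50 bases also belong to Gm45233, a gene model at the same locus, and whether the authors' annotation holds it is unknown. Etfa, the alpha subunit, averaged 90.9 ± 2.23 CPM with LRG1 and 95.2 ± 2.03 CPM with PBS and did not pass (95% interval -0.16 to 0.022). The ratio of Etfa to Etfb counts, which does not depend on scaling between libraries, was 1.71 ± 0.0288 with LRG1 and 1.23 ± 0.0300 with PBS (SD, n = 3). The groups did not overlap, and the exact permutation p was 0.1, the smallest possible. Etfdh, the oxidoreductase that hands the electrons to ubiquinone, was 1.23-fold lower (120.1 ± 6.85 CPM with LRG1 and 148 ± 4.45 CPM with PBS, adjusted p = 4.32e-06).

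The ketone body enzymes among the members were led by Bdh1, the mitochondrial dehydrogenase that interconverts acetoacetate and beta-hydroxybutyrate. Bdh1 had 11.5, 10.02 and 9.67 CPM in the LRG1 libraries, against 27.4, 31.9 and 31.9 CPM in the PBS libraries. It was 2.93-fold lower, with the groups far apart (log2 fold change -1.55, SE 0.087, adjusted p = 3.75e-13), and 14.3% of its exon bases overlap a transcript on the opposite strand. Oxct1, the CoA transferase of ketone body use, which hepatocytes are known to hold in small amounts, had 25.8, 30.3 and 29.6 CPM in the LRG1 libraries, against 47.2, 42.7 and 45.6 CPM in the PBS libraries. It fell by 1.58-fold, LRG1 replicate 1 being the lowest (log2 fold change -0.66, SE 0.066, adjusted p = 1.14e-08), with 13.2% of its exon bases overlapped on the opposite strand. Acat1, the mitochondrial acetoacetyl-CoA thiolase, averaged 48.5 ± 4.22 CPM with LRG1 and 46.01 ± 0.788 CPM with PBS and did not pass (95% interval -0.053 to 0.20).

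Of the other genes of ketone body handling, some are not reported here, so no count is given for that list. The monocarboxylate transporter genes, of which Slc16a6 is known from zebrafish as a ketone body exporter, fell: Slc16a1 by 1.42-fold (adjusted p = 4.18e-10), Slc16a6 by 1.46-fold (adjusted p = 3.3e-07) and Slc16a7 by 3.37-fold from a low level (adjusted p = 7.48e-10). Of the Slc16a6 exon bases, 12.8% overlap Amz2 on the opposite strand. Bdh2, a cytosolic dehydrogenase, averaged 9.39 ± 0.391 CPM with LRG1 and 9.26 ± 1.27 CPM with PBS (adjusted p = 0.915).

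The thioesterases, which release free fatty acid and CoA from acyl-CoA, held the largest fall of the set. Acot2, the mitochondrial type I enzyme, had 2.69, 3.33 and 3.33 CPM in the LRG1 libraries, against 16.7, 15.3 and 14.8 CPM in the PBS libraries. It was 4.99-fold lower, with every LRG1 library far below every PBS library (log2 fold change -2.32, SE 0.12, adjusted p = 8.42e-14). Acot1, its cytosolic paralog on the same chromosome, had 0.697, 0.605 and 0.655 CPM in the LRG1 libraries, against 1.82, 1.02 and 1.49 CPM in the PBS libraries. With only 13 to 14 counts per library with LRG1 and 19 to 36 with PBS it fell with a wide error (log2 fold change -1.15, SE 0.29, adjusted p = 0.00202). Acot4, another enzyme of that family, listed with the PPAR-alpha targets, was 2.25-fold lower (adjusted p = 3.69e-08).

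Acot1 and Acot2 are close copies, and their sequences show what reads of 50 bases can tell apart. Their coding sequences in GENCODE M21 are 95.3% identical over 1236 aligned bases, and 44.4% of the aligned 50-base windows are the same in both. The first of these windows, at bases 194 to 243 of the Acot1 coding sequence, and the window with the most differences, at bases 2 to 51, are given with the differing bases in capitals, of which there are 10 between the copies.
Acot1 and Acot2, identical window: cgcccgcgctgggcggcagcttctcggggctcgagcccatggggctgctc
Acot1, differing window: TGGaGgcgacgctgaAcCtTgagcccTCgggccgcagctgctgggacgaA
Acot2, differing window: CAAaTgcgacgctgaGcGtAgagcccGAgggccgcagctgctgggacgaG

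Reads from identical windows have no unique alignment, so the counts of this pair rest on the parts that differ. In all, 33.6% of the Acot1 windows and 27.7% of the Acot2 windows occur in transcripts of other genes, and both fold changes are uncertain for that reason. The remaining thioesterases moved little. Acot9, a mitochondrial enzyme, was 1.18-fold lower (72.04 ± 1.88 CPM with LRG1 and 84.7 ± 1.01 CPM with PBS, adjusted p = 0.000126), with 20.2% of its windows shared, chiefly with Acot10. Acot13, a small thioesterase found at mitochondria, averaged 86.2 ± 0.719 CPM with LRG1 and 88.8 ± 5.35 CPM with PBS and did not pass. Its interval was -0.14 to 0.055, and its sign turned without PBS replicate 2 (log2 fold change 0.0044).

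Propionyl-CoA, the end product of odd-chain oxidation, is carboxylated and rearranged to succinyl-CoA. The genes of both propionyl-CoA carboxylase subunits fell, Pccb by 1.405-fold (41.4 ± 0.677 CPM with LRG1 and 58.2 ± 1.64 CPM with PBS, adjusted p = 2.63e-08) and Pcca by 1.27-fold (22.4 ± 1.34 CPM with LRG1 and 28.4 ± 1.28 CPM with PBS, adjusted p = 0.000255). The ratio of Pcca to Pccb counts was 0.541 ± 0.0261 with LRG1 and 0.489 ± 0.0260 with PBS (SD, n = 3; exact permutation p = 0.2). Mut, the methylmalonyl-CoA mutase, lay at the threshold with 50.1 ± 3.48 CPM with LRG1 and 55.1 ± 2.62 CPM with PBS (log2 fold change -0.14, adjusted p = 0.0505). It passed in 8 of 15 alternatives, with adjusted p from 0.00810 to 0.287. Of 6 further genes of this route and of cobalamin handling, 1, the methionine synthase gene Mtr, rose (16.7%, against 25.5% of all tested genes). Another 3 fell (50%, against 25.8% of all tested genes). Those that fell were Mmab (1.53-fold), which makes the cofactor of the mutase, the epimerase gene Mcee (1.33-fold) and Mmadhc (1.17-fold), which guides cobalamin to its enzymes.

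**Figure D3:**
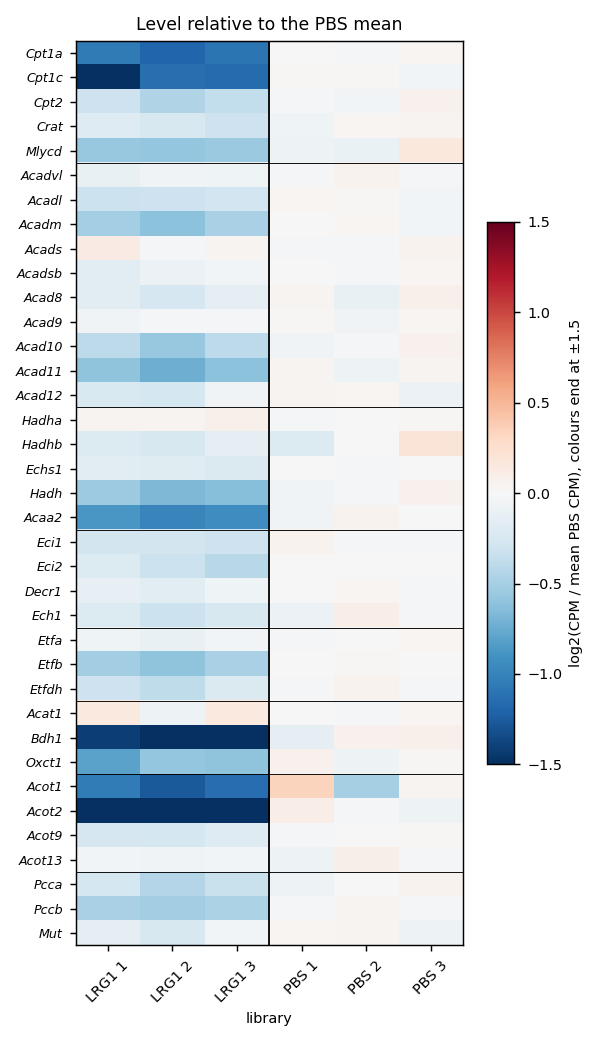
Level of each tested member in each of the 6 libraries (LRG1 left, PBS right), as log2 of the CPM over the mean PBS CPM; rows are grouped by role and colours end at ±1.5. The LRG1 columns are blue over most rows and alike among themselves, and the deepest rows are Acot2, Bdh1, Cpt1a, Cpt1c, Acot1 and Acaa2.

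Added up, the 37 tested members took 2550 ± 57.2 CPM with LRG1 and 3208 ± 34.2 CPM with PBS (SD, n = 3), a ratio of 0.795. The sums ran from 2484 to 2584 CPM in the LRG1 libraries and from 3169 to 3230 CPM in the PBS libraries. By role, the ratio was lowest for carnitine entry, at 0.598, and highest for the auxiliary enzymes, at 0.851. These sums are a description and were not tested.

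Per kilobase of exon, the most abundant member was Acot13 with LRG1 and Acaa2 with PBS. Acaa2 stood at 65.3 CPM per kilobase with LRG1 and 124 with PBS, and Acot13 at 119 CPM per kilobase with LRG1 and 123 with PBS. Acads stood at 99.4 CPM per kilobase with LRG1 and 96.3 with PBS. Hadh, the next in the PBS order, had 60.6 CPM per kilobase with LRG1 and 92.98 with PBS, where 9 members lay above it with LRG1. Cpt1a, the control point of entry, was in the middle of the order with 20.8 CPM per kilobase with LRG1 and 45.03 with PBS, and Cpt2 had 23.6 CPM per kilobase with LRG1 and 30.6 with PBS. The lowest levels were those of Acot1, Acad12 and Cpt1c. Exon lengths came from GENCODE M21, which need not be the annotation the authors counted on, so small steps in this order carry no weight.

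**Figure D4:**
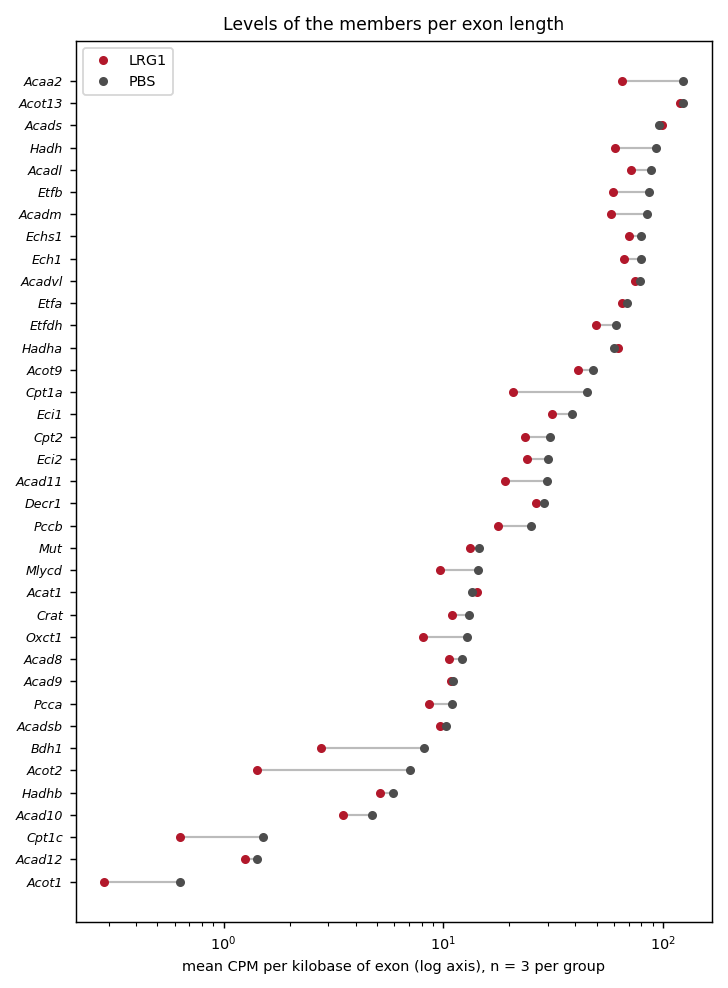
Mean CPM per kilobase of exon (log axis) for the 37 tested members, ordered by the PBS level, with LRG1 in red and PBS in grey. Levels with PBS run from 0.636 for Acot1 to 124 for Acaa2, and the longest gaps between the points are those of Acot2 and Bdh1.

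The supply of carnitine and acyl-CoA was read from 14 further genes, of which 12 could be tested, 10 fell and 1 rose, with a median log2 fold change of -0.77. The share lower was 83.3% and the share higher 8.33%, where all tested genes gave 25.8% and 25.5%. Crot, the peroxisomal carnitine octanoyltransferase, had 177, 178 and 178 CPM in the LRG1 libraries, against 443, 487 and 456 CPM in the PBS libraries. That is 2.599-fold lower with no overlap (log2 fold change -1.38, SE 0.041, adjusted p = 2.56e-18). The acyl-CoA synthetase genes Acsl4, Acsl1 and Acsl5 were 1.73-fold, 1.36-fold and 1.27-fold lower, whereas Acsl3 was 1.43-fold higher (52.9 ± 1.07 CPM with LRG1 and 36.9 ± 1.33 CPM with PBS, adjusted p = 2.24e-08). The medium-chain synthetase genes Acsm5, Acsm1 and Acsm3 were 7.95-fold, 4.18-fold and 2.79-fold lower from low levels, and 32.8% of the Acsm3 exon bases overlap Eri2 on the opposite strand. Of the carnitine synthesis genes, Bbox1 averaged 1.96 ± 0.978 CPM with LRG1 and 5.39 ± 0.286 CPM with PBS, and Aldh9a1 75.2 ± 2.07 CPM with LRG1 and 126 ± 1.08 CPM with PBS. Slc25a20, the carnitine-acylcarnitine carrier between entry and matrix, was 1.12-fold lower (adjusted p = 0.0178), and Slc22a5, the plasma membrane carnitine transporter, did not pass (adjusted p = 0.107), with 27.1% of its windows shared with other genes, chiefly Slc22a21.

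Regulators of the pathway were mixed, with 7 of 16 lower, 4 higher and 5 not past the threshold. The shares were 43.8% lower and 25% higher, against 25.8% and 25.5% of all tested genes. Acacb, the mitochondrial acetyl-CoA carboxylase that makes the malonyl-CoA acting on carnitine palmitoyltransferase 1, had 10.6, 8.205 and 8.01 CPM in the LRG1 libraries, against 44.8, 42.9 and 42.03 CPM in the PBS libraries. It was 4.86-fold lower (log2 fold change -2.28, SE 0.085, adjusted p = 2.11e-16), so this gene and Mlycd, whose products make and remove malonyl-CoA, were both lower. Ppara, which encodes PPAR-alpha, averaged 21.2 ± 1.79 CPM with LRG1 and 25.5 ± 1.08 CPM with PBS, a 1.21-fold fall (adjusted p = 0.00447). The coactivator gene Ppargc1a averaged 6.05 ± 0.537 CPM with LRG1 and 6.98 ± 0.839 CPM with PBS and did not pass (adjusted p = 0.177). Nrip1, a corepressor of nuclear receptors, was 1.95-fold higher (58.2 ± 2.11 CPM with LRG1 and 29.8 ± 2.45 CPM with PBS, adjusted p = 3.8e-12), and Creb3l3, a fasting-induced liver transcription factor, 1.398-fold higher. The AMP-activated kinase subunit genes went apart, Prkaa1 being 1.26-fold higher and Prkaa2 1.39-fold lower.

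Known PPAR-alpha targets outside mitochondrial oxidation were more often lower than higher, but did not all share a direction. Of 18 tested, 9 fell, 4 rose and 5 did not pass, with a median log2 fold change of -0.32. The share lower was 50%, where all tested genes gave 25.8%, and the share higher 22.2%, near the 25.5% of all tested genes. Ehhadh, the peroxisomal bifunctional enzyme of beta-oxidation, was 1.87-fold lower. Vnn1, a pantetheinase, was 2.22-fold lower (39.4 ± 2.49 CPM with LRG1 and 87.3 ± 2.75 CPM with PBS), and Acaa1b 3.36-fold lower with 35.5% of its windows shared with Acaa1a. In the other direction, Pdk4, the pyruvate dehydrogenase kinase that spares glucose when fat is burnt, averaged 43.9 ± 2.33 CPM with LRG1 and 26.3 ± 1.19 CPM with PBS (log2 fold change 0.74, adjusted p = 7.65e-10). Plin2, a lipid droplet coat protein, was 1.44-fold higher, and Cyp4a32 2.37-fold higher at low counts with 46.8% of its windows shared. Angptl4, an inhibitor of lipoprotein lipase, averaged 118 ± 5.098 CPM with LRG1 and 118 ± 3.25 CPM with PBS (adjusted p = 0.950). Cyp4a14, a fatty acid hydroxylase, averaged 15.1 ± 0.666 CPM with LRG1 and 16.1 ± 0.849 CPM with PBS (adjusted p = 0.360).

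**Figure D5:**
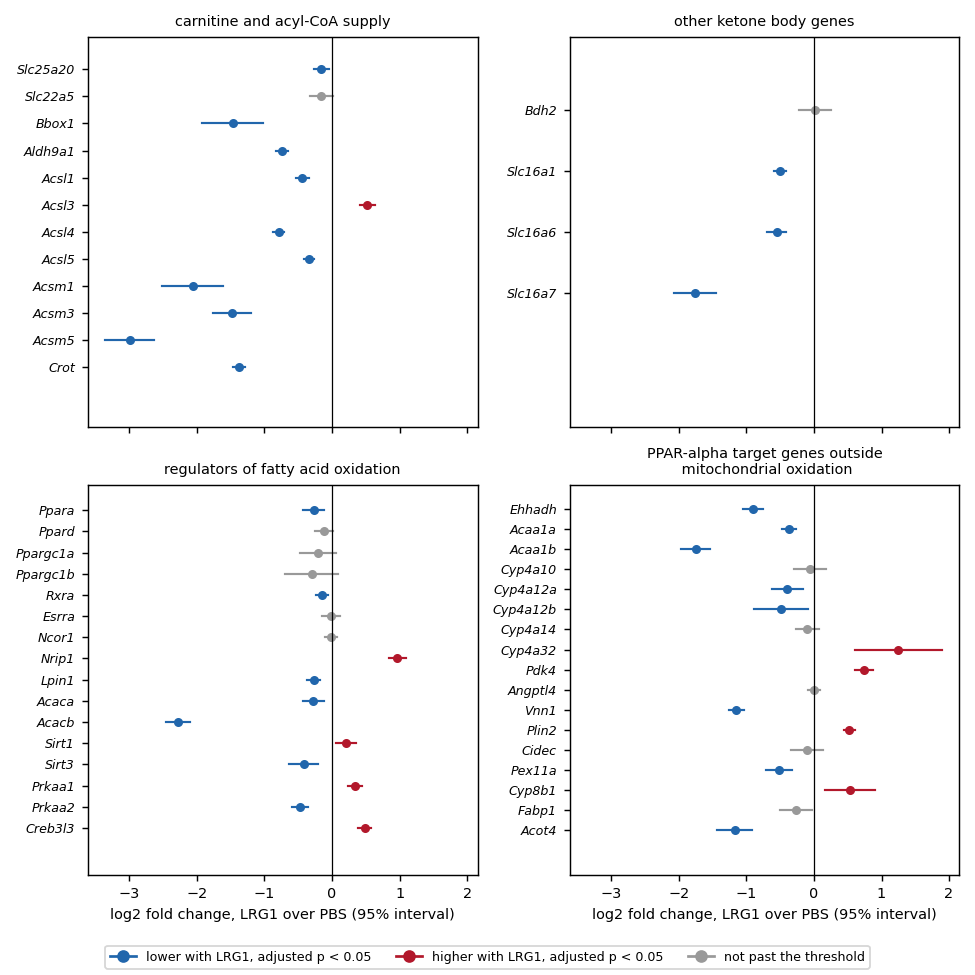
Log2 fold change, LRG1 over PBS, with 95% intervals for genes of 4 lists around the pathway, those not reported here left out; blue marks genes lower with LRG1 past the threshold, red those higher and grey those not past it. Acsm5 at -2.99 is the lowest of the supply genes, and Acacb at -2.28 the lowest regulator.

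General mitochondrial genes fell in part. Of 15 such genes (citrate synthase, porins, import and fusion proteins, chaperones), 7 fell, none was higher and 8 did not pass, with a median log2 fold change of -0.10. The share lower was 46.7% and the share higher 0%, against 25.8% and 25.5% of all tested genes. The count higher was 0 in edgeR, also at an unadjusted p of 0.05, and 0 in DESeq2 and limma-voom. Mfn2, a mitofusin, was 1.49-fold lower, the porin gene Vdac1 1.29-fold, the chaperonin gene Hspd1 1.18-fold and the citrate synthase gene Cs 1.14-fold lower, and 44.8% of the Hspd1 windows occur in other genes. Their summed level was 1471 to 1503 CPM with LRG1 and 1696 to 1718 CPM with PBS. The part of this shift in the members' falls was not tested.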

How the data were processed

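The authors deposited raw read counts per gene symbol, 1 table per library; bcl2fastq, TopHat2, HTSeq and mm9 are named in the submitters' processing notes. Per the labels' protocols the libraries were poly(A)-selected, strand-marked and read from a single end at 50 bases. No source used here gives tool versions, the annotation or the strand setting. The HTSeq summary rows were kept out; the row of multiple alignments held 58.2 to 59.3% of each table's total, and reads outside genes were 8.96 to 10.3% of genic, ambiguous and non-genic reads together. Genes passing filterByExpr (minimum count 10) numbered 12301 and held 99.95% of gene counts. Differences were tested by the quasi-likelihood F test of edgeR 4.0.16 (R 4.3.3), TMM-normalized, on treatment alone over 3 LRG1 and 3 PBS libraries, Benjamini-Hochberg adjustment over all tested genes, threshold 0.05. SE values derive from the F statistic. CPM use TMM-scaled library sizes of the tested genes. The pipeline was tested on simulated counts. Replicates of a group differed by more than sampling noise (chi-square per degree of freedom 2.88 to 4.13).

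Exon lengths, overlaps and the share of 50-base windows found in other genes' transcripts come from GENCODE M21 (GRCm38), matched by symbol. The members and lists were chosen with earlier results of these data known. Library values are given for members past the threshold with an absolute log2 fold change of at least 0.5 and for a few fixed ones, and up to 4 genes per further list, plus those past 1 on the log2 scale, are named; others named were chosen after their values were seen. Alternatives were DESeq2 size factors, upper quartile and total-count scaling, other count filters, DESeq2 1.42.0, limma-voom (limma 3.58.1), a replicate block, leaving out each library, and removal of GC and length trends. A few genes of the further lists, though counted in the list totals, are not reported here by name.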

Additional observations from a re-analysis of the deposited data

How the results depend on the processing

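Over the 15 alternatives, 24 to 28 members were called lower, and 30 of the 37 tested members kept both call and sign in every alternative. Acot13 changed in sign alone and was never called. No member was called higher except under removal of GC and length trends, where the count was 1 (Acads). That setting also gave a median member log2 fold change of -0.26, against -0.30, and turned the sign of Acot13 to 0.064. With 1 library left out, the log2 fold change of Acads ran from -0.00033 (without LRG1 replicate 1) to 0.083, and that of Acot13 from -0.082 to 0.0044 (without PBS replicate 2). For the supply of carnitine and acyl-CoA, 2 genes were called higher with no filter on low counts, and 1 to 2 with a library left out. In each case the cause was not tested. With replicate number as a block, 25 members were called lower. The replicate numbers showed no sign of pairing: deviations of same-numbered libraries correlated at -0.16, -0.063 and -0.16, and none was best matched by its own number. Deviations from means of 3 samples are tied to one another, so this check cannot show whether same-numbered samples share an origin. Members with few counts, Acot1 and Cpt1c above all, have the widest intervals, and Cpt1b was below the depth needed.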
